A study of Mus musculus with 6 samples.

Results

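The 86 genes described here encode the proteins of the cytosolic ribosome in mouse dorsal root ganglia. They are the rows of a gene table of 22087 symbols whose name is Rpl or Rps with a number and at most a short suffix, Rplp0 to Rplp2 or Rpsa, without symbols that end as pseudogene copies. Of them, 51 belong to the large subunit and 35 to the small subunit, and all 86 were among the 17759 genes with enough reads to be tested. GENCODE types 81 of them as protein coding. The other 5 carry a symbol of the family but are typed as pseudogenes, namely Rps3a2, Rps3a3, Rpl6l and Rpl32l as processed pseudogenes and Rps4l as a transcribed one. The members lie on 19 chromosomes, 4 of them on X.

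Dorsal root ganglia hold the cell bodies of the sensory neurons that serve skin, muscle and organs; here they were taken at 3 months of age, and their poly(A) RNA was sequenced in 6 libraries. The 3 control libraries are of genotype Kif2a fl/fl, and the 3 conditional knockout (cKO) libraries are Kif2a fl/fl; Avil Cre, so both groups carry the floxed alleles and only the second carries Cre, named for Avil, a gene that sensory neurons express. Kif2a encodes a kinesin that takes microtubule ends apart, and the question of the study is its role in nociception. A whole ganglion also holds satellite glia, Schwann cells, fibroblasts, vessels and immune cells, which do not share that marker. In such bulk RNA, fewer cells of a type and less RNA per cell cannot be told apart. Nothing in the labels ties a library to an animal of its own, and a p-value here therefore measures the spread among libraries only, part of which may be technical.

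Each cytosolic ribosome holds one copy of nearly every ribosomal protein, and the P-stalk proteins Rplp1 and Rplp2 are the exception, being present in more than one copy. The mRNAs of these proteins begin with a run of pyrimidines, the 5′ terminal oligopyrimidine (TOP) motif, through which mTORC1 and Larp1 set how actively they are translated. In sensory neurons, ribosomes serve both the large cell body and local translation in the axon, and glia and immune cells of the ganglion carry their own.

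The stretch around the transcription start is shown first, because this motif is what the mRNAs are known to share. RefSeq (GRCm38.p6) gave a start for 62 of the 86 members. Runs of at least 8 letters C or T were sought on the coding strand, within 15 bases either side of a start. Such a run was present in 28 of these 62 members (45.2%), against 13.9% of 27025 genes with a promoter entry. Of the members with a long run, 4 of the large subunit and 1 of the small subunit are printed 5′ to 3′, with the run in capitals and the annotated start at the middle of the window.
Rpl7a (chr2:26910792-26910821, plus strand): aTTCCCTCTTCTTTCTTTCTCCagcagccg
Rpl27a (chr7:109519180-109519209, plus strand): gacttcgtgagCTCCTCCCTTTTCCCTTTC
Rpl35 (chr2:39005117-39005146, minus strand): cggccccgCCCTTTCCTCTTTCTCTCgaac
Rpl15 (chr14:18270972-18271001, minus strand): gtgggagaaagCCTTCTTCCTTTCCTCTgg
Rps10 (chr17:27635230-27635259, minus strand): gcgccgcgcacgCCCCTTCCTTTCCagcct
Runs of 21, 19, 18, 17 and 13 pyrimidines stand in these windows, in the order printed. A match is a description of the letters only. The letters CCGGAAG, searched on both strands over 250 bases before to 50 after a start, were in 25 of the 62 members (40.3%). Of the 27025 genes with a promoter entry, 9.93% had them. In both searches a gene with several starts counted once, if any of its starts matched. The motif has pyrimidines at one end on either strand, so a match can overlap the pyrimidine run there.

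The members were expressed at similar levels per length in these ganglia. Counts scaled to a common library total (CPM) per kilobase of the shortest complete principal transcript had a median of 283 over the 81 protein-coding members, with quartiles of 224 and 379, and 63 of the 81 lay within 2-fold of the median. The highest levels per kilobase were 1018 for Rplp1, which forms the P-stalk that recruits translation factors, 876 for Rps15, a protein of the small subunit's head, and 860 for Rpl41, the smallest protein of the large subunit. The lowest were 0.473 for Rpl3l, the striated muscle paralog of Rpl3, 0.935 for the pseudogene-typed Rps3a2 and 1.12 for Rpl24. Rpl24, which forms a bridge between the subunits, had only 13 to 27 counts per library and Rps10, a protein of the small subunit's head, 83 to 153. A low count at a symbol need not be a low level of its mRNA, since reads that fit several near-identical copies cannot be placed and their treatment in the counting is not given in the sources used here. Whether this holds for Rpl24 and Rps10 was not tested.

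No ribosomal protein gene differed between conditional knockout and control by the test across all genes. None of the 86 had a Benjamini-Hochberg adjusted p under 0.05 in edgeR's quasi-likelihood test, where 0.0225% of all genes did. None passed in DESeq2, which called 0.17% of the genes it gave an adjusted p, and none in limma-trend, which called 0.0225% of all genes. At an unadjusted p under 0.05 there were 2 members in edgeR, against 4.67% of all genes, 2 in DESeq2, against 3.55%, and 1 in limma-trend, against 4.73%. No member had groups of libraries that did not overlap, which was so for 8.66% of all genes.

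The fold changes were small and mostly on one side of 0. The fitted log2 fold change of conditional knockout over control was above 0 for 77 members and below 0 for 9, against 51.6% of all genes above 0. Its median was 0.07 over the members and 0.01 over all genes, with member quartiles of 0.03 and 0.13, and 82 of the 86 lay within 0.25 of 0. The median of 0.08 in the large subunit (45 above 0, 6 below) and that of 0.07 in the small subunit (32 above, 3 below) lie close together. The median standard error of a member was 0.22, larger than the median fold change, so a shift of this size is not detectable gene by gene with 3 libraries a group. Since the members moved together from library to library, their count on one side does not stand on 86 independent values: without conditional knockout replicate 1 only 18 members were above 0 with a median of -0.10, and without control replicate 1 there were 41 with a median of -0.004.

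**Figure D1:**
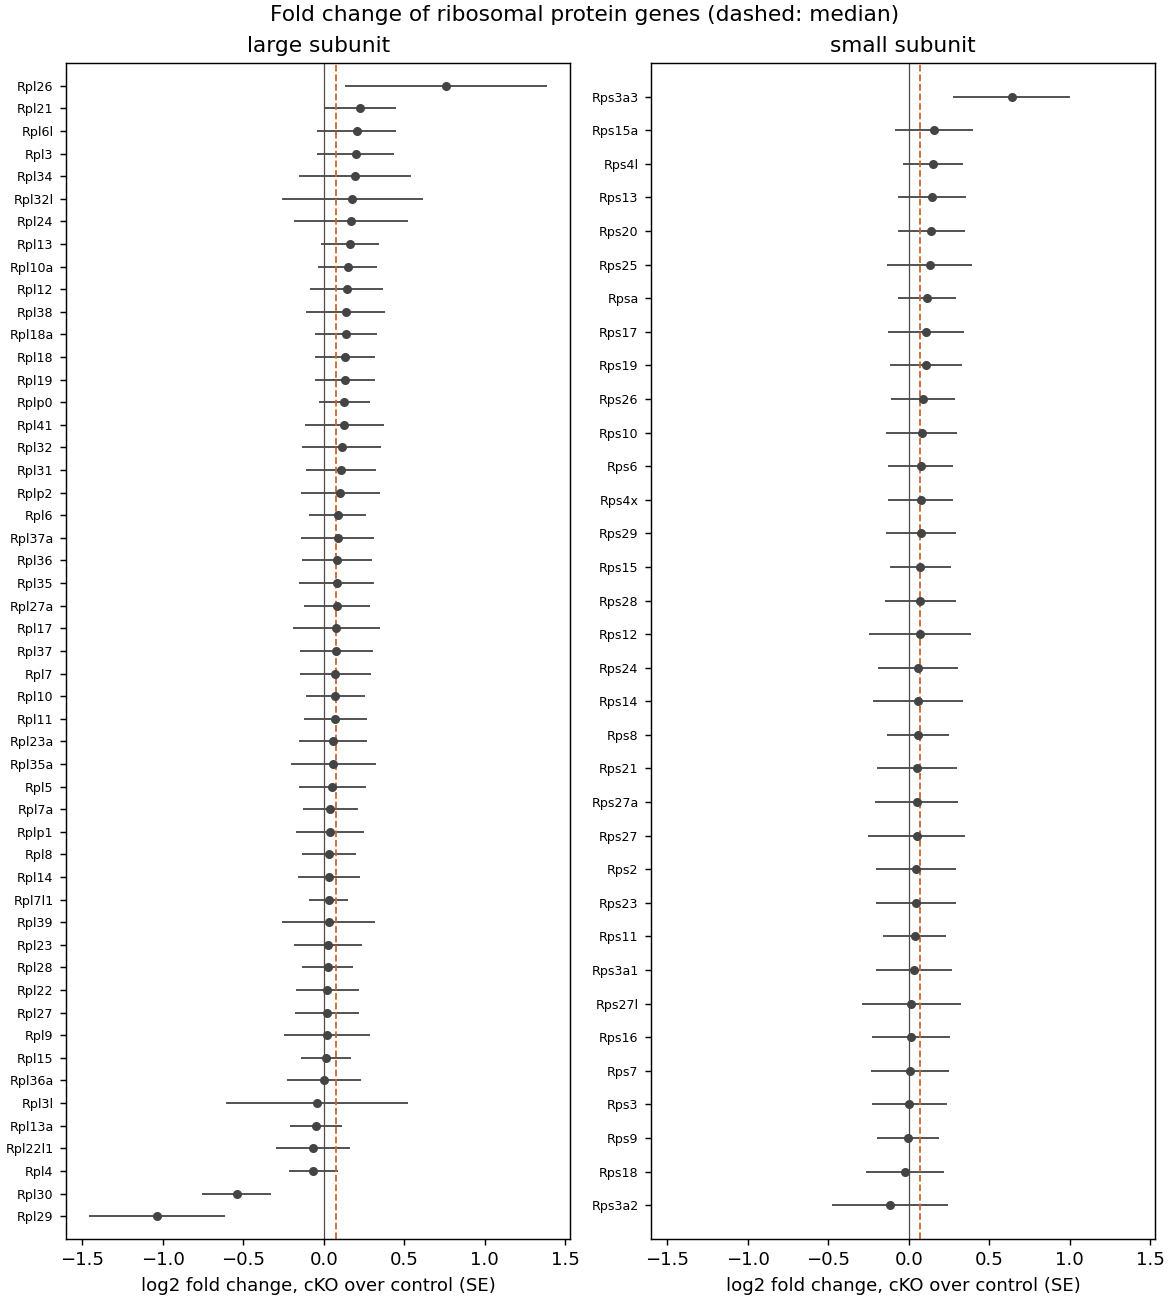
Fitted log2 fold change (x axis, cKO over control) of the ribosomal protein genes, the large subunit on the left and the small subunit on the right, with 1 small subunit gene not drawn; points are edgeR estimates, bars 1 SE, the dashed line the median over all genes of each subunit. Most points lie between 0 and 0.25, and Rpl26, Rps3a3, Rpl30 and Rpl29 lie more than 0.25 from 0.

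The summed level of the members differed more between libraries of one group than between the groups. The 86 genes took 1.63%, 1.90% and 1.93% of all counts in control replicates 1 to 3, and 2.41%, 1.37% and 2.04% in conditional knockout replicates 1 to 3. The highest and the lowest share are both conditional knockout libraries, and the controls lie between them. The means were 1.82 ± 0.163% and 1.94 ± 0.528% (SD, n = 3 each), so their difference is smaller than the spread within the conditional knockout.

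Both subunits followed this order. Large subunit genes took 1.03 ± 0.0872% of counts in the control and 1.11 ± 0.281% in the conditional knockout, and small subunit genes 0.783 ± 0.0770% and 0.832 ± 0.247% (SD, n = 3). The ratio of large to small subunit counts was 1.35, 1.28 and 1.33 in the controls and 1.28, 1.41 and 1.34 in the conditional knockouts. The ratio overlapped between the groups and was highest in the library with the lowest ribosomal protein share and lowest in the library with the highest.

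**Figure D2:**
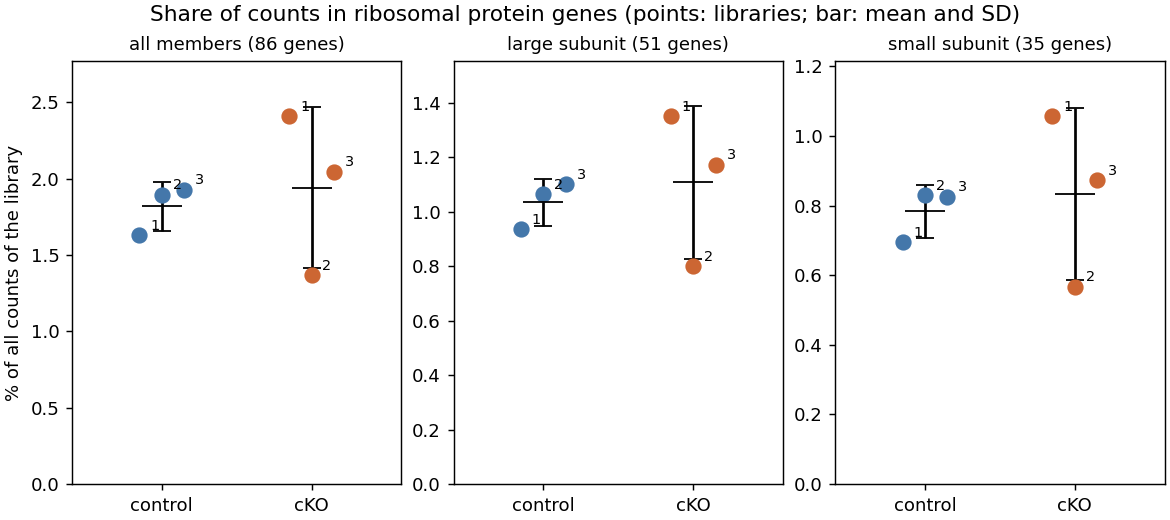
Share of each library's counts (y axis, percent) in all 86 members, the 51 large subunit genes and the 35 small subunit genes; points are libraries with their replicate number, bars the mean and SD of 3. In each panel cKO replicate 1 is highest and cKO replicate 2 lowest, with the 3 controls between them.

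Single genes repeated the pattern. Of the 86 members, 73 were highest in conditional knockout replicate 1, 75 were lowest in replicate 2, and 67 were both (77.9%), against 11.4% of all genes. Between these 2 libraries of one group the members differed by a median of 0.87 on the log2 scale, and 84 of 86 were higher in replicate 1. All genes differed by a median of 0.00, a value that the scaling of the libraries largely sets. The level of a member across the 6 libraries had a correlation above 0.9 with the mean of the other members for 66 of 86 genes, with a median of 0.973. These correlations share libraries and scaling and are given as a description. Without both of these libraries, the members of the third conditional knockout library were set against the 3 controls, and 81 were above 0 with a median of 0.19. That value describes 1 library, and any test of it assumes that the lone library varies as the controls do.

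**Figure D3:**
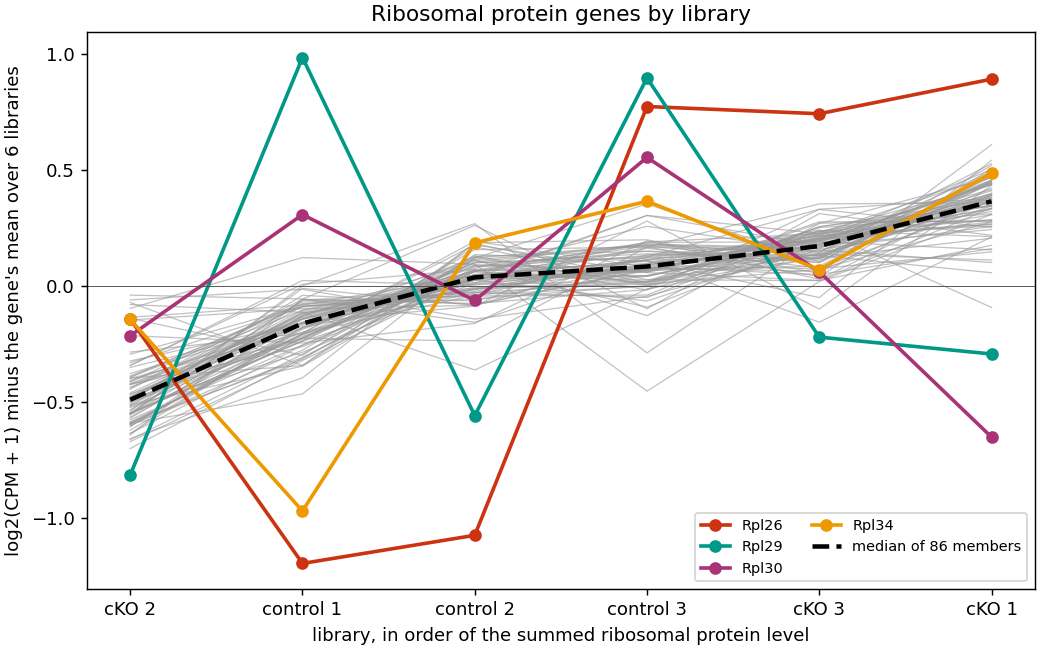
Level of each member on the log2(CPM + 1) scale, minus its own mean over the 6 libraries (y axis), with libraries ordered by summed ribosomal protein level (x axis); grey lines are single genes, the dashed line their median, and 4 genes that depart from it are coloured. Most lines climb together from cKO replicate 2 to cKO replicate 1, while Rpl29 and Rpl30 do not.

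The P-stalk and Rpsa are given as named members of each subunit. Rplp0, the stalk's base, was at 430, 448 and 441 CPM in the controls and at 530, 372 and 540 CPM in the conditional knockouts. The fold change on the log2 scale was 0.13 ± 0.16 (SE; exact two-sided permutation p = 0.5). The controls were tight and the conditional knockouts lay on both sides of them, with replicate 3 highest, as in 6 members, where 73 were highest in replicate 1. The stalk proteins Rplp1 and Rplp2 had log2 fold changes of 0.04 ± 0.21 and 0.10 ± 0.25. Rpsa, a small subunit protein that is also known as the laminin receptor, averaged 366 ± 10.9 CPM over the controls and 396 ± 94.1 CPM over the 3 conditional knockouts (SD), with a log2 fold change of 0.11 ± 0.18.

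Rpl29, Rpl30 and Rpl26 had the smallest p of the large subunit and are described further on. Next in the large subunit were Rpl21 at 0.23 ± 0.22 and Rpl13 at 0.16 ± 0.18 (log2 fold change ± SE). In the small subunit the members of smallest p included Rps13 at 0.14 ± 0.21 and Rps20 at 0.14 ± 0.21, both with higher values in conditional knockout replicates 1 and 3 than in every control and the lowest value in replicate 2. The pseudogene-typed Rps3a3 had a larger log2 fold change of 0.64 ± 0.36, but on 13 to 38 counts per library, and it was lowest in control replicate 2. Rps4l, also typed as a pseudogene, was at 23.5, 23.0 and 15.4 CPM in the controls and at 26.9, 20.0 and 21.8 CPM in the conditional knockouts, so it was lowest in control replicate 3. The log2 fold change of Rps4l was 0.15 ± 0.19.

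Several members departed from the shared pattern. The correlation with the mean of the other members, over 6 libraries, was lowest for Rpl30 at -0.205, Rpl29 at 0.111, Rpl24 at 0.207 and Rps4l at 0.226, followed by Rpl6l at 0.535, Rpl26 at 0.541, Rps3a3 at 0.577, Rpl32l at 0.587 and Rpl34 at 0.602. Rpl24, Rps3a3, Rpl6l and Rpl32l were among the members with the lowest levels per kilobase. Rpl29, Rpl30, Rpl26 and Rpl34 are the more abundant of these and are given by library. Rpl29, a large subunit protein found only in eukaryotes, was at 90.3, 30.3 and 84.9 CPM in the controls and at 36.6, 25.2 and 38.6 CPM in the conditional knockouts. Control replicates 1 and 3 stand above the other 4 libraries, and control replicate 2 falls among the conditional knockouts. The log2 fold change was -1.03 ± 0.42, with an unadjusted edgeR p of 0.0486, an adjusted edgeR p of 1.0 and an exact two-sided permutation p of 0.3, where 0.1 is the smallest that 3 against 3 libraries can give. In the authors' deposited table Rpl29 has a false discovery rate of 0.00614 and is the 1 member among the genes that table marks for passing its rate and a fold of 1.5, which are 0.656% of the 22087.

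Rpl30, whose yeast counterpart regulates the splicing of its own transcript, was at 51.0, 39.2 and 60.7 CPM in the controls and at 25.7, 35.2 and 42.8 CPM in the conditional knockouts. It was lowest in conditional knockout replicate 1, where most other members were highest. The groups overlapped, with a log2 fold change of -0.54 ± 0.22, an unadjusted edgeR p of 0.0352, an adjusted edgeR p of 1.0 and an exact two-sided permutation p of 0.2. The authors' deposited table gives it a false discovery rate of 0.0946.

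Rpl26, which lies near the exit of the peptide tunnel, was at 52.0, 56.6 and 207 CPM in the controls and at 225, 109 and 202 CPM in the conditional knockouts. Control replicates 1 and 2 stand below the other 4 libraries, and the third control is level with conditional knockout replicates 1 and 3 but above replicate 2. Its log2 fold change of 0.76 ± 0.63 was the highest of the members and had an unadjusted edgeR p of 0.273. Rpl34 was at 94.7 CPM in control replicate 1 and between 169 and 262 CPM in the other 5 libraries.

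Ribosomal protein genes have many processed pseudogenes, DNA copies of their spliced mRNAs, and some of these copies have rows in the same gene table. A match of the members' transcripts to those of the table's genes (at least 95% identity over at least 100 bases) gave 226 pseudogene copies of 70 members. Most were low, with 180 under 50 counts in every library. Together they held between 2.09% and 2.61% as many counts as the members, lowest in conditional knockout replicate 1. Adding their reads to the members left the median log2 fold change at 0.07, with 77 members above 0 and none past the threshold. Matched genes of other types were not added. Among these, BC004004, typed as protein coding, matched Rpl21 at 98.5% identity over 529 bases, with 2587 to 3546 counts per library.

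Among the copies, 7 reached 500 counts in some library, and 4 pairs are printed because the copy's counts are uneven between libraries. Each pair shows 60 bases of coding sequence, 5′ to 3′ on the coding strand, from the GENCODE transcripts of GRCm38, with the bases that differ in capitals.
Rpl26: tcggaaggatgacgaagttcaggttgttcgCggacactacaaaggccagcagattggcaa
Gm15772: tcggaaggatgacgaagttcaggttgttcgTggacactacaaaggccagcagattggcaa
Rpl29: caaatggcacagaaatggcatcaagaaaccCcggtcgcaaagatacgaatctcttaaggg
Gm8210: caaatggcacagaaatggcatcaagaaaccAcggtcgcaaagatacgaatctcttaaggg
Rps2: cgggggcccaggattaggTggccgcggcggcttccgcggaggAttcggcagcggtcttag
Rps2-ps13: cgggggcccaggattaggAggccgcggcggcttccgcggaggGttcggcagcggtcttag
Rpl3: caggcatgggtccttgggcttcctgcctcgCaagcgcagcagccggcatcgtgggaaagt
Rpl3-ps1: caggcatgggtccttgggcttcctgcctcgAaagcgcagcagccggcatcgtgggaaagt
Counted from 1 at the first coding base, with the member's base first, Gm15772 differs from Rpl26 by C177T and T288C over 438 coding bases. Gm8210 differs from Rpl29 by C72A, C300T and T423C over 483. Rpl3-ps1 differs from Rpl3 by C57A and T786C over 1209 aligned bases, and Rps2-ps13 from Rps2 at 7 positions over 882, of which T60A and A84G stand in the window. No gap was found in these 4 alignments. A read that spans none of the differing positions and stays inside the aligned coding bases fits both genes of a pair.

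Gm15772 (chr5:3236431-3236868, plus strand) carried a large part of the reads that match Rpl26 (chromosome 11). It was at 122, 145 and 82.0 CPM in the controls and at 93.1, 48.6 and 86.2 CPM in the conditional knockouts. In control replicates 1 and 2 the copy exceeded Rpl26 itself, and in the other 4 libraries Rpl26 exceeded the copy. The sum of both was 174, 202 and 289 CPM in the controls and 318, 158 and 289 CPM in the conditional knockouts, or 222 ± 59.9 and 255 ± 85.2 CPM (SD, n = 3). The sum overlapped between the groups and was lowest in conditional knockout replicate 2 and highest in replicate 1, as for most members. With the reads of copies added, the log2 fold change of Rpl26 was 0.20 ± 0.29, against 0.76 without.

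Gm8210 (chr1:43189156-43189638, plus strand) was at 10.1, 15.7 and 7.04 CPM in the controls and at 23.0, 15.4 and 22.1 CPM in the conditional knockouts. Its log2 fold change was 0.89 ± 0.29, opposite in sign to that of Rpl29 (chromosome 9), with an adjusted edgeR p of 1.0. The sum of Rpl29 and Gm8210 was 100.4, 46.0 and 91.9 CPM in the controls and 59.6, 40.6 and 60.7 CPM in the conditional knockouts, so control replicate 2 still fell among the conditional knockouts. With the reads of copies added, the log2 fold change of Rpl29 was -0.54 ± 0.30, against -1.03 without, and the gene did not pass in edgeR.

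Both copies on X had very uneven counts. Rps2-ps13 (chrX:52898588-52899469, plus strand) had 2, 1 and 1201 counts in the controls and 1, 777 and 3 in the conditional knockouts. Control replicate 3 and conditional knockout replicate 2 thus held nearly all of its reads, 1 library from each group, and it was not among the genes tested. In these 2 libraries Rps2 (chromosome 17), at 189 and 157 CPM, was lowest, and the sum of both genes was 227 and 189 CPM. Rpl3-ps1 (chrX:13202571-13203780, plus strand) had 869, 418 and 1185 counts in the controls and 40, 616 and 485 in the conditional knockouts. The library with 40 counts, conditional knockout replicate 1, had the highest level of Rpl3 (chromosome 15), 521 CPM.

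**Figure D4:**
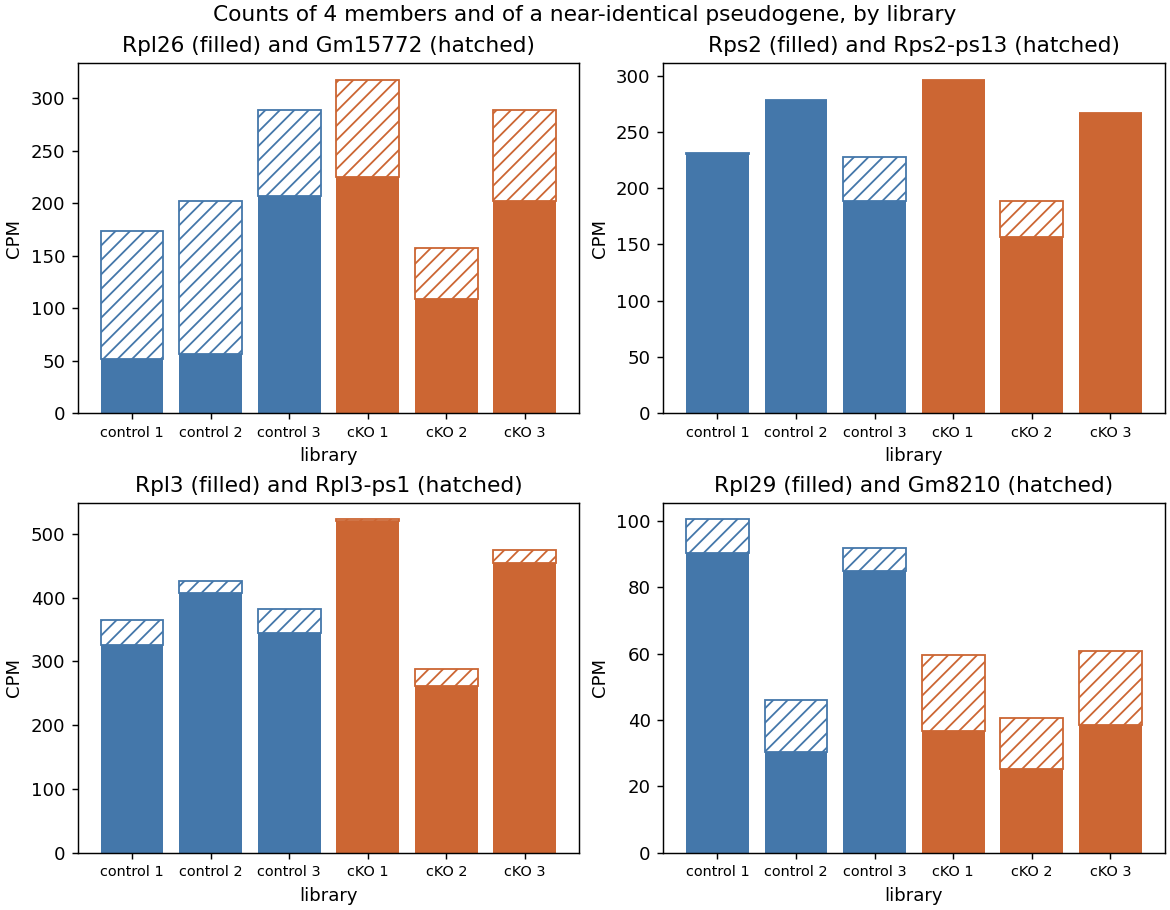
CPM (y axis) of Rpl26, Rps2, Rpl3 and Rpl29 (filled) with that of 1 near-identical pseudogene each (hatched, stacked on top) in the 6 libraries; blue is control and orange cKO. Gm15772 makes up most of the Rpl26 bar in control replicates 1 and 2, and Rps2-ps13 shows in control replicate 3 and cKO replicate 2 alone.

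Paralogs of a standard member were set against it library by library. Rpl22l1, a paralog that Rpl22 holds down in mouse cells, was at 14.7 ± 1.04% of the CPM of Rpl22 in the control and 13.9 ± 1.26% in the conditional knockout (SD, n = 3). Rps27l, a p53 target gene in human cells, was at 26.2 ± 2.45% of Rps27 in the control and 26.3 ± 1.57% in the conditional knockout. Rpl7l1 was at 15.8 ± 0.514% of Rpl7 in the control and 16.2 ± 4.19% in the conditional knockout, where replicate 2 alone reached 20.9%. The groups overlapped for each of these ratios, with exact two-sided permutation p of 0.4, 0.9 and 1.0. Since 3 against 3 libraries cannot give a p under 0.1, this does not show that the ratios are alike.

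The rarer forms also overlapped between the groups. Rps4l was at 5.36 ± 1.40% of the X-linked Rps4x in the control and 5.80 ± 1.24% in the conditional knockout (exact permutation p = 0.7), with 3.75% the lowest and 7.19% the highest library. Rpl3l had 6 to 30 counts per library and was at 0.184 ± 0.0850% of Rpl3 in the control and 0.146 ± 0.0727% in the conditional knockout (exact permutation p = 0.5), with libraries from 0.0947% to 0.281%. Rpl36al, which lies outside the family rule, was at 1.33 ± 0.164% of Rpl36a in the control and 1.31 ± 0.337% in the conditional knockout (exact permutation p = 1.0). These percentages compare CPM, not CPM per kilobase, so they describe changes of a pair between libraries and not amounts of protein mRNA.

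Gene groups around the ribosome were set beside the members by their list score, the mean over a list of each gene's log2(CPM + 1) minus its own mean over the 6 libraries. The members scored -0.17, 0.02 and 0.10 in controls 1 to 3 and 0.34, -0.45 and 0.16 in conditional knockouts 1 to 3. The 35 ribosome biogenesis genes ranged only from -0.07 to 0.04 and the 11 genes of RNA polymerase I and its factors from -0.08 to 0.04. The scores of both lists stayed closer to 0 than those of the members. None of the genes in these lists passed in edgeR. Of the biogenesis genes 9 had a log2 fold change above 0 and 26 below, with a median of -0.03.

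The 21 translation factors and other proteins whose mRNAs also carry a TOP motif scored -0.03, 0.05 and 0.10 in the controls and 0.11, -0.25 and 0.02 in the conditional knockouts, lowest in the library in which the members were lowest. None passed in edgeR, with 9 above 0, 12 below and a median log2 fold change of -0.015. Eef1a2, the elongation factor form of neurons and muscle, was at 378, 428 and 466 CPM in the controls and at 259, 287 and 221 CPM in the conditional knockouts, so the groups did not overlap. Its log2 fold change was -0.73 ± 0.14 with an adjusted edgeR p of 0.628, while Eef1a1, the widespread form, was at 0.01 ± 0.17.

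The regulators of TOP mRNAs also held no gene past the threshold. Among 19 genes of mTORC1 and its TOP regulators 6 had a log2 fold change above 0 and 13 below, and 4 had an unadjusted edgeR p under 0.05, 2 lower and 2 higher in the conditional knockout, where 4.67% of all genes did. Larp1, which binds the TOP motif, was at 95.1, 108 and 114 CPM in the controls and at 67.3, 88.0 and 71.6 CPM in the conditional knockouts, without overlap. Its log2 fold change was -0.48 ± 0.14 with an adjusted edgeR p of 0.946. Mycn, a transcription factor that drives ribosome synthesis in growing cells, was at 4.24, 5.71 and 4.52 CPM in the controls and at 2.52, 2.48 and 2.95 CPM in the conditional knockouts, also without overlap. That is -0.86 ± 0.22 on the log2 scale, with an adjusted edgeR p of 0.926. The 2 that were higher are Rps6kb2, a kinase downstream of mTORC1, at 14.9 to 15.4 CPM in the controls and 17.9 to 21.8 CPM in the conditional knockouts, and Ddit4, an inhibitor of mTORC1 signalling, at 30.9 to 38.4 CPM and 40.9 to 44.0 CPM. Neither overlapped between the groups, at log2 fold changes of 0.35 ± 0.13 and 0.30 ± 0.12, and both had an adjusted edgeR p of 1.0.

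Among 10 genes of ribosome stress and p53 targets 8 were above 0 and 2 below, none past the threshold. The 1 gene of them with an unadjusted edgeR p under 0.05 was Zmat3, a p53 target that encodes an RNA-binding protein, and it was lower, at 38.0, 40.6 and 41.7 CPM in the controls and 29.8, 36.7 and 29.4 CPM in the conditional knockouts. Its groups did not overlap, at a log2 fold change of -0.33 ± 0.12 with an adjusted edgeR p of 1.0. Cdkn1a, the p53 target that stops the cell cycle, was at 0.08 ± 0.16.

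Genes of mitochondrial protein synthesis and respiration moved less between libraries than the members. The 77 mitochondrial ribosomal protein genes scored between -0.15 and 0.14, and the 77 nuclear genes of oxidative phosphorylation between -0.27 and 0.18, each lowest in conditional knockout replicate 2 and highest in conditional knockout replicate 3. Their median log2 fold changes were 0.05 (56 above 0, 21 below) and 0.03 (52 above, 25 below), none past the threshold, against 0.07 for the cytosolic ribosomal proteins.

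Markers of other cells in the ganglion were uneven between the same libraries. The 10 macrophage markers, all detected, scored -0.24, 0.05 and -0.04 in the controls and 0.75, -0.75 and 0.23 in the conditional knockouts, and summed to 341 to 533 CPM in the controls and 244 to 715 CPM in the conditional knockouts. The 7 fibroblast markers summed to 4041 to 5586 CPM and 3112 to 10367 CPM, and the 8 Schwann cell markers to 5861 to 7448 CPM and 3942 to 9486 CPM. In all 3 lists the highest library was conditional knockout replicate 1 and the lowest replicate 2, as for the ribosomal proteins. The lists of lymphocytes and plasma cells, skeletal muscle and fat, and satellite glia had the same order by score. Other lists departed from this order by score. The endothelium and pericyte list was also highest in conditional knockout replicate 1, at 0.458, but lowest in control replicate 1, at -0.162. The blood cell list was also lowest in conditional knockout replicate 2, at -1.657, but highest in control replicate 2, at 1.125. Conditional knockout replicate 1 was next, at 1.111. By sum, the blood cell list was highest in conditional knockout replicate 1, at 3598 CPM, and lowest in replicate 2, at 756 CPM.

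Of 14 lymphocyte and plasma cell markers 11 were tested, and they scored -0.42, 0.31 and -0.32 in the controls and 0.69, -0.70 and 0.43 in the conditional knockouts, with Cd8a and Mzb1 at 0 in some library. The 6 skeletal muscle and fat markers ranged from 4.51 to 297 CPM in sum, with 297 in conditional knockout replicate 1, 4.51 in replicate 2 and 5.26 in replicate 3. The 12 sensory neuron markers, all detected as the label of the tissue requires, ran the other way, with scores of 0.09, -0.08 and 0.11 in the controls and -0.27, 0.17 and -0.02 in the conditional knockouts. They summed to 14202 to 17345 CPM in the controls and 13071 to 18513 CPM in the conditional knockouts. The 8 satellite glia markers, all detected, scored within a narrower range, from -0.14 in conditional knockout replicate 2 to 0.10 in replicate 1, and summed to 6407 to 6698 CPM in the controls and 5771 to 7497 CPM in the conditional knockouts.

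The spinal cord and brain list separated the groups instead. Of its 10 markers 6 were tested, and these scored 0.04, 1.02 and 0.12 in the controls and 0.02, -0.59 and -0.61 in the conditional knockouts, with control replicate 2 standing apart. Every conditional knockout score lay below every control score, narrowly so for replicate 1. The median log2 fold change was -1.19, and 4 of the 6 had an unadjusted edgeR p under 0.05, where 4.67% of all genes did. None of the 6 passed the threshold. The 10 markers summed to 334 to 429 CPM in the controls and 318 to 364 CPM in the conditional knockouts, with Slc6a5 and Opalin at 0 in some library. Aqp4 was at 8.15 to 26.5 CPM and Gfap at 3.72 to 20.6 CPM over the libraries. Olig2, Gad2, Mog and Opalin did not exceed 1.36 CPM. Most of the sum thus came from among the other listed markers, Slc1a2, Slc6a5, Slc6a11 and Slc17a6. Their single parts are not given here, and Slc6a5 cannot carry the sum where it was at 0. The sum is therefore neither a level of the whole list nor an amount of spinal cord or brain tissue. The part of these cell types in the ribosomal protein levels was not tested.

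**Figure D5:**
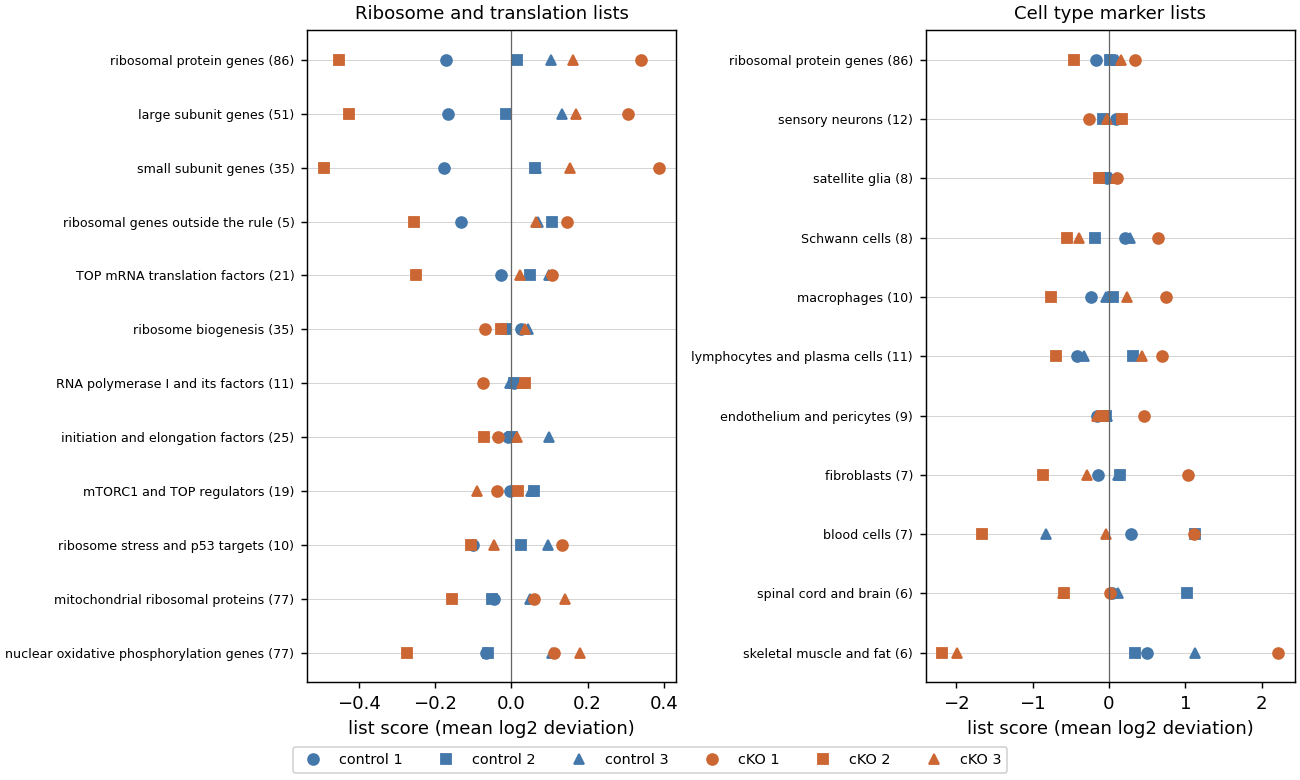
List score (x axis, mean log2 deviation from each gene's mean over the 6 libraries) of the members, related pathways and cell type markers, with the number of tested genes in brackets; colour gives the group and shape the replicate number. The members and several lists, such as macrophages, fibroblasts and Schwann cells, have cKO replicate 1 highest and cKO replicate 2 lowest. The sensory neuron list has them reversed, and the ribosome biogenesis list stays near 0.

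The libraries held between 21683083 and 31626625 counts, and log2 CPM of libraries of one group correlated between 0.965 and 0.988 across genes. Kif2a ranged from 80.4 to 90.0 CPM in the controls and from 66.5 to 69.8 CPM in the conditional knockouts, a log2 fold change of -0.33 ± 0.10 without overlap, so the labels and the targeted gene go the same way. Avil ranged from 562 to 593 CPM and from 239 to 365 CPM. Neither passed over all genes in edgeR, with adjusted p of 1.0 and 0.444.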

How the data were processed

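The authors deposited 1 table with a row per gene symbol, and groups and replicate numbers came from the sample labels. Per the file headers, the deposited counts are raw; they are whole numbers. The deposited normalized signal and regularized log2 values, also made by the authors, were not used. The log2 fold changes and p-values of the authors, and the false discovery rates from fdrtool, per the file headers, are quoted as theirs. Tools named in the submitters' processing notes are STAR, cutadapt and DESeq2, with the mm10 build. Their versions, the counting program, the strand setting and the annotation were not given in the sources used here.

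Counts were tested with edgeR 4.0.16 (R 4.3.3): filterByExpr with a minimum count of 10, TMM scaling, a robust quasi-likelihood F test, and Benjamini-Hochberg adjustment over all 17759 genes tested. CPM uses TMM-scaled totals. DESeq2 1.42.0, limma 3.58.1, other scalings and filters, a replicate block and left-out libraries were alternatives. The fit was checked on simulated data. Transcripts, gene types and positions are from GENCODE M21 (GRCm38), matched by symbol. Copies were matched with blastn among the table's genes. Named genes are the 5 members of each subunit with the smallest p, the P-stalk genes and Rpsa, paralogs with their partners, the 3 highest and 3 lowest per kilobase, Kif2a and Avil; Rpl34, Rps10, Rpl6l, Rpl32l, the copies and the genes named from pathway lists were chosen after their values were seen. Of the genes so named, 1 is left out of the text. Members and lists were chosen with earlier results of these data known. The depth of 21683083 to 31626625 counts per library and a common biological coefficient of variation of 0.205 set the precision.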

Additional observations from a re-analysis of the deposited data

How the results depend on the processing

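No ribosomal protein gene passed the threshold in any fit run. The number of members above 0 ranged from 18 to 84 when 1 library was left out, and the member median from -0.10 to 0.30, the large subunit median from -0.08 to 0.29 and the small subunit median from -0.12 to 0.30; conditional knockout replicate 1 gave the lowest and replicate 2 the highest values. The median of all genes moved from 0.006 to 0.044 with upper quartile factors, where the member median was 0.11. Removing a lowess trend on exonic length gave a member median of 0.04 with 60 above 0, and limma-trend 0.03 with 58. The labels share replicate numbers between the groups but state no pairing. Deviations of same-numbered libraries from their group means correlated at -0.19, -0.27 and -0.12, and those of differently numbered libraries at -0.06 to 0.23. With 3 libraries a group, these values cannot settle whether a pairing exists. With the number as a block the member median was 0.03, 58 members were above 0 and none passed. Of 617 values of 31 named genes under alternatives, 556 kept direction and side, 59 reversed in 19 genes and 2 became stronger, both for Avil (DESeq2 gave an adjusted p of 5.27e-05; leaving out conditional knockout replicate 2 gave 0.0244 with edgeR). Adding reads of copies and leaving out both outer conditional knockout libraries were chosen after seeing the data. With limma-trend, the log2 fold change was -0.007 for Rpl22, -0.036 for Rpl36a, -0.001 for Rplp1, -0.017 for Rps27 and -0.008 for Rps27l. With upper quartile factors, the log2 fold change was 0 for Rpl3l. Without a filter, the log2 fold change was -0.009 for Rpl36a. With the replicate block, the log2 fold change was -0.007 for Rpl22, -0.036 for Rpl36a, 0 for Rplp1, -0.019 for Rps27 and -0.014 for Rps27l. With the length trend removed, the log2 fold change was -0.029 for Rpl36a, -0.048 for Rplp1, -0.008 for Rps15, -0.016 for Rps27 and -0.059 for Rps27l. With a GC trend removed, the log2 fold change was -0.006 for Rpl36a, 0.005 for Rpl3l and -0.027 for Rps27l. With reads of copies added, the log2 fold change was -0.053 for Rpl24. Without conditional knockout replicates 1 and 2, the log2 fold change was 0.123 for Rpl22l1, 0.271 for Rpl36al and -0.027 for Rplp2. With 1 library left out it ranged from -0.155 to 0.216 for Rpl22, -0.188 to 0.231 for Rpl36a, -0.08 to 0.364 for Rpl41, -0.02 to 0.12 for Rpl7l1, -0.154 to 0.256 for Rplp1, -0.186 to 0.302 for Rplp2, -0.233 to 0.33 for Rps27, -0.238 to 0.267 for Rps27l and -0.258 to 0.07 for Rpl36al, and from -0.199 to 0.161 for Rpl22l1, -0.787 to 0.395 for Rpl3l, -0.426 to 0.046 for Rps3a2, -0.014 to 0.253 for Rps4l, -0.083 to 0.309 for Rpl7, -0.064 to 0.355 for Rps13, -0.08 to 0.266 for Rps15, -0.013 to 0.369 for Rps20, -0.072 to 0.294 for Rps4x and -0.073 to 0.368 for Rpl24. The cause of these changes was not tested. Precision is limited by 3 libraries a group, and the level of a member with copies by reads that fit several genes.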
